A study of Mus musculus with 12 samples.

Results

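The mitochondrial genome of the mouse is a small circle that carries 37 genes: 13 messenger RNAs, 2 ribosomal RNAs and 22 transfer RNAs. All 37 were found among the 23378 genes of the count table, by gene symbols that begin with mt-, and were sorted into the 3 classes by the gene type the table gives. The counts come from 12 libraries of total RNA from cells of the mouse kidney cortex. The mice were of the strain C57BL/6 and carried nNos CreERT2-mTmG, in which a tamoxifen-inducible Cre driven by the neuronal nitric oxide synthase gene switches a cell's membrane label from red (tdTomato) to green (eGFP). The green cells were taken as macula densa, the small plaque of tubule cells that senses salt beside the glomerulus. The most intensely red cells served as control cells, which per the labels represent distal tubule and collecting duct epithelium. Mice received either a control diet or, for 14 days, low salt food together with enalapril, an ACE inhibitor, at 150 mg/L of drinking water; the second regime is called treatment below. The groups held 2 libraries of macula densa cells on control diet, 2 of macula densa cells under treatment, 4 of control cells on control diet and 4 of control cells under treatment. Age was not given in the labels, and nothing in them says whether replicates were separate animals, so p-values measure the spread between these libraries. Each macula densa library shares a number in its description with a control cell library of the same diet. The labels do not say what that number stands for, and the main fit took all libraries as unpaired.

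The 13 mt mRNAs encode membrane subunits of the respiratory chain: 7 of complex I (the mt-Nd genes), 1 of complex III (mt-Cytb), 3 of complex IV (mt-Co1, mt-Co2 and mt-Co3) and 2 of the ATP synthase (mt-Atp6 and mt-Atp8). Both strands of the circle are transcribed as long precursors, from which tRNAs that lie between the other genes are cut out, releasing the mRNAs and rRNAs. The factors that copy the genome, transcribe it and process its RNA are encoded in the nucleus, as are most subunits of the respiratory chain. Thick ascending limb and distal tubule cells, the neighbours of the macula densa, are known for dense mitochondria that feed sodium transport.

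The start and end of all 37 genes in the table matched the GENCODE M21 annotation of GRCm38 once 1 was taken from each end. The annotation puts 12 of the 13 mRNAs, both rRNAs and 14 of the 22 tRNAs on the plus strand. The minus strand holds mt-Nd6 and 8 tRNAs. The genes are nearly contiguous, and 9 pairs of neighbours share between 1 and 43 bases. The sequences shown here are those on which the results below depend, from the transcripts of that annotation: the 2 tRNAs with the most counts over all libraries with 20 bases of each neighbour, the tRNA with the smallest p-value in the diet comparison, and the ends of mt-Nd5 and mt-Nd6, which meet on opposite strands. Capitals mark mt-Tg between mt-Co3 and mt-Nd3 at chrM:9371-9478, mt-Tv between mt-Rnr1 and mt-Rnr2 at chrM:1005-1113, and, in the last pair, the 14 bases that mt-Nd5 and mt-Nd6 share. mt-Th lies at chrM:11546-11612 on the plus strand, the end of mt-Nd5 at chrM:13532-13565 on the plus strand and the end of mt-Nd6 at chrM:13552-13585 on the minus strand.
mt-Tg with neighbours: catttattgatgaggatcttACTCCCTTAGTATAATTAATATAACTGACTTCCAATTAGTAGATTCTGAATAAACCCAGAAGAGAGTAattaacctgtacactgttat
mt-Tv with neighbours: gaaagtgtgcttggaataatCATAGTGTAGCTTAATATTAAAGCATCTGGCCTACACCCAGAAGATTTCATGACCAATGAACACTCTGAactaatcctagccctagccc
mt-Th: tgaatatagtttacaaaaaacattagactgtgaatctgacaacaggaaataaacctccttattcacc
mt-Nd5 end: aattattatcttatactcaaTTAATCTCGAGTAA
mt-Nd6 end: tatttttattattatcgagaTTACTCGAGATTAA

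No base separates mt-Tg or mt-Tv from either neighbour, so a read over the tRNA and a read over a longer transcript that runs through it are not told apart by these counts. The longest overlap is that of mt-Atp8 with mt-Atp6, 43 bases at chrM:7927-7969 on the plus strand, in which the start codon of mt-Atp6, in capitals, lies inside mt-Atp8.
mt-Atp8 and mt-Atp6 overlap: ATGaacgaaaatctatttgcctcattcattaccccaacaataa
mt-Nd4l and mt-Nd4 share 7 bases on the same strand. The library kit keeps the strand of the RNA, but the strand setting of the authors' counting is not given in the sources used here. Reads of mt-Nd6 and reads of the RNA opposite to it may therefore not be told apart.

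For 6 mt mRNAs, counts also lay on a near-identical copy of the gene in the nuclear genome, and reads of the pair cannot be told apart where the sequences are the same. A blastn search of the annotated transcripts found 14 nuclear genes in the table that match 9 mt genes over at least 100 bases at 90% identity or more. Over all libraries, the copies on other chromosomes held at most 0.18% as many counts as their mt gene, and those on chromosome 1 held more. Gm10925 matches mt-Atp6 over 678 bases, Gm28661 matches mt-Co2 over 681, Gm28437 matches mt-Co3 over 783 and Gm10222 matches mt-Nd4l over 294, all with 0 mismatches. Gm28438 differs from mt-Nd3 at 1 of 345 bases, T3C, and Gm29216 from mt-Co1 at 1 of 483, A1066T, with positions counted from the first base of the mt gene and the mt base given first. The differing base is in capitals in these stretches, of which the mt ones lie at chrM:9459-9486 and chrM:6390-6418.
mt-Nd3: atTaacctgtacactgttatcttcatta
Gm28438: atCaacctgtacactgttatcttcatta
mt-Co1: ggaAttgttttatccaactcatcccttga
Gm29216: ggaTttgttttatccaactcatcccttga

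Per library, the counts on Gm10925 came to 99.7% to 121% of those on mt-Atp6, and on Gm28437 to 106.2% to 106.6% of those on mt-Co3. Counts on Gm28661 came to 102.8% to 124.1% of those on mt-Co2. For these 3 genes the copy held about as many counts as the mt gene in every library. The ratio varied far more for Gm28438 against mt-Nd3, from 5.53% to 152.8%, and for Gm10222 against mt-Nd4l, from 17.3% to 164.4%. Both macula densa libraries under treatment had 152.8% as many counts on the copy as on mt-Nd3, against 16.2% and 78.0% on control diet. For these 2 genes the fold changes from all 12 libraries are given with the copy added where they are printed; those without replicate 4 of the control cells are for the counts as deposited. Gm29216 reached at most 4.88% of mt-Co1. Together the 6 copies held 21.1% to 30.3% as many counts as the 13 mt mRNAs.

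Library totals ran from 4259034 to 14856540 counts. The nuclear genes Gm42418 and Mir6236, known to collect reads of nuclear ribosomal RNA, took 61.2% to 75.9% of them. The counts on protein-coding genes of the nucleus ran from 781241 to 2331458. The mt genes took 3.48% to 14.1%, of which the 2 rRNAs held 80.9% to 88.3%, the mRNAs 11.1% to 16.4% and the tRNAs 0.233% to 4.24% in a library. Genes were compared with edgeR's quasi-likelihood test over the 14180 genes that passed its filter on low counts, with p-values adjusted over all of them by Benjamini and Hochberg and a threshold of 0.05. All 13 mt mRNAs, both mt rRNAs and 20 of the 22 mt tRNAs passed. mt-Tc and mt-Ts2, with means of 2.58 and 1.33 counts per library, did not. Levels are CPM, the depth-scaled count, with library sizes scaled by TMM factors. Differences are log2 fold changes ± standard error (SE).

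mt RNA took the largest share of the library in macula densa cells on control diet. The whole mt class made up 11.7% and 14.1% of all counts in those 2 libraries, and 7.18% and 6.88% in the 2 macula densa libraries under treatment. In control cells on control diet the share was 3.81%, 4.07%, 5.13% and 9.98% in replicates 1 to 4, and under treatment 3.48%, 4.36%, 5.45% and 4.74%. The macula densa libraries on control diet were thus above every other library, with 1 control cell library on control diet, replicate 4, close behind them.

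Summed over the 13 mRNAs, macula densa cells on control diet held 14768 and 17861 CPM and under treatment 7779 and 8992 CPM. The 4 control cell libraries on control diet held 5949, 5731, 8539 and 16972 CPM. Under treatment they held 4417, 5547, 8604 and 5878 CPM. Replicate 4 of the control cells on control diet lay within the macula densa range of that diet, and the other 3 lay below it. Per 100 counts on nuclear protein-coding genes, mt mRNA stood at 8.61 and 10.2 in macula densa cells on control diet and at 3.83 and 4.16 under treatment. Control cells stood at 2.98, 3.15, 4.33 and 9.52 on control diet and at 2.47 to 4.22 under treatment, so the same library stood apart on this scale too. In bulk RNA, more mt RNA per cell and a different mix of cells cannot be told apart.

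**Figure D1:**
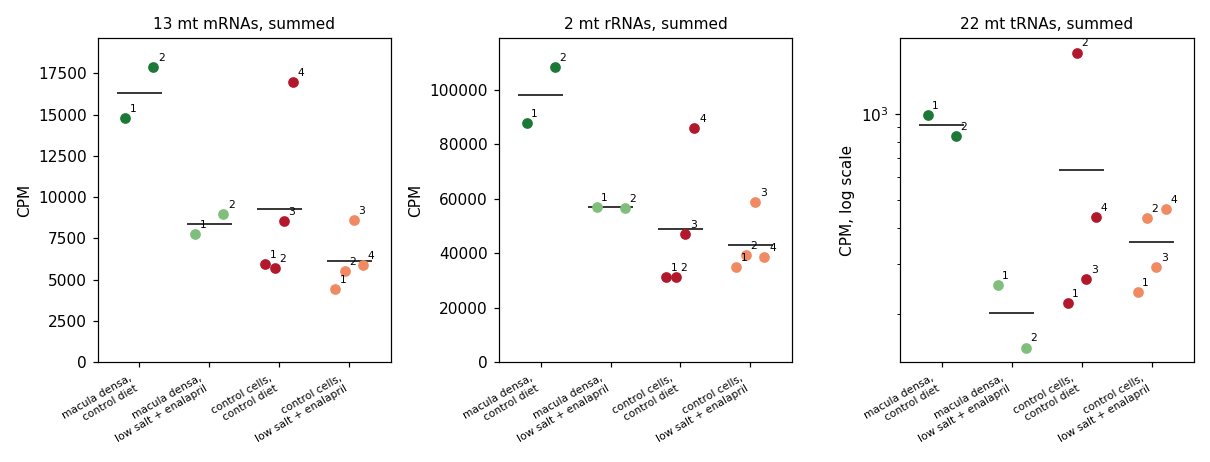
Summed level of the mt mRNAs, rRNAs and tRNAs in each library, in CPM (the tRNA axis is logarithmic); points are libraries numbered by replicate and lines are group means. The 2 macula densa libraries on control diet and control cell replicate 4 on that diet have the highest mRNA and rRNA levels, and control cell replicate 2 on that diet has the highest tRNA level.

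The 2 rRNAs, which form the core of the mitochondrial ribosome, outweighed all mRNAs together in every library. Per kilobase (kb) of gene, mt-Rnr2 (the large subunit 16S rRNA) averaged 23767 CPM and mt-Rnr1 (the small subunit 12S rRNA) 19769 CPM over the 12 libraries. Their counts stood in a nearly fixed ratio: mt-Rnr2 per mt-Rnr1 count was 1.74 in replicate 1 of the control cells on control diet and 1.90 to 2.11 in the other 11 libraries. Among the mRNAs, mt-Atp6 averaged 2060 CPM per kb, mt-Co1 1762, mt-Cytb 966, mt-Nd1 755 and mt-Nd4 710 on the same scale. mt-Nd5 averaged 548, mt-Nd2 472, mt-Atp8 446, mt-Co2 430, mt-Co3 283, mt-Nd4l 263 and mt-Nd6 242 CPM per kb, and mt-Nd3 was last at 64.3. With the chromosome 1 copies added, mt-Atp6 came to 4336, mt-Co2 to 954, mt-Co3 to 583 and mt-Nd4l to 460 CPM per kb, and mt-Nd3 to 96.3, still the lowest. The order of the genes between depends on where those reads are counted, while mt-Atp6 and mt-Co1 lead and mt-Nd3 is last in both versions.

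**Figure D2:**
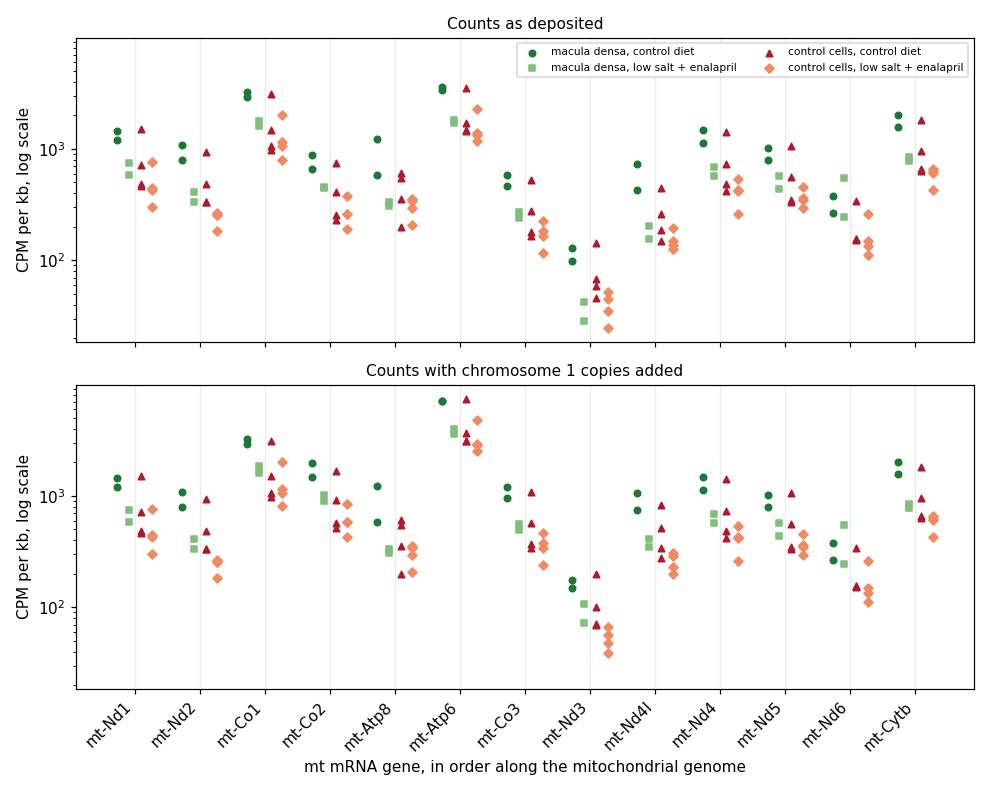
Level of each of the 13 mt mRNAs in each library, in CPM per kb on a log axis, with the counts as deposited above and with the chromosome 1 copies added below; symbols and colours mark the 4 groups. mt-Atp6 and mt-Co1 are highest and mt-Nd3 lowest in both panels, and mt-Nd6 is the gene in which macula densa cells under treatment do not fall below those on control diet.

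As shares of all mt mRNA counts, mt-Co1 took 26.4% to 35.8%, mt-Atp6 13.6% to 20.5% and mt-Cytb 8.41% to 12.9% in the 12 libraries. The 7 complex I genes together took 36.5% ± 2.30 (SD, n = 12), the 3 complex IV genes 34.9% ± 2.67 and the 2 ATP synthase genes 16.7% ± 2.17. With the chromosome 1 copies added the order changes: complex IV took 33.2% ± 2.39, complex I 29.9% ± 2.28 and the ATP synthase 27.4% ± 3.21 (SD, n = 12). On control diet, complex I took 35.8% to 38.1% in macula densa and 37.4% to 39.5% in control cells, which overlap. Complex IV took 34.0% to 35.8% in macula densa and 31.4% to 33.6% in control cells, which do not overlap, nor did they with the copies added (33.8% to 34.1% against 29.4% to 32.5%). Under treatment complex IV took 36.3% to 38.2% in macula densa and 32.9% to 40.8% in control cells, which overlap. No test was run on these sums.

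On control diet, all 13 mt mRNAs had a positive fold change in macula densa cells over control cells, with a median of 0.82 on the log2 scale against -0.05 for all genes tested. None passed the adjusted threshold in edgeR's test (0 of 35 mt genes, where 6.61% of all genes did, 2.69% higher and 3.92% lower). An unadjusted p under 0.05 was found for 6 mt genes and for 24.2% of all genes. Both rRNAs also had positive values, 0.997 ± 0.41 for mt-Rnr1 (adjusted p = 0.156) and 1.01 ± 0.43 for mt-Rnr2 (adjusted p = 0.1735). The 2 macula densa libraries held 58666 and 72644 CPM of mt-Rnr2 and the 4 control cell libraries 19781, 21131, 31728 and 57677 CPM, without overlap, with replicate 4 just below the lower macula densa library. mt-Rnr1 did not overlap either, and the 13 mRNAs all did. Of all genes tested, 31.9% had groups that did not overlap, 15.2% with the macula densa higher and 16.7% with it lower.

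mt-Nd4l, a small membrane subunit of complex I, had the largest value among the mRNAs in the counts as deposited. Its level was 126 and 215 CPM in macula densa cells and 44.0, 55.6, 76.6 and 132 CPM in control cells, so replicate 4 of the control cells lay above the lower macula densa library. The difference was 1.15 ± 0.38 (adjusted p = 0.0881 in edgeR's test), and 0.88 with the copy Gm10222 added. With the chromosome 1 copies added, the highest value of the 13 mRNAs was 1.095, above that of mt-Nd4l. mt-Atp8 followed at 1.09 ± 0.40 (adjusted p = 0.117), from 120 and 249 CPM against 40.3, 71.8, 111 and 123 CPM in control cells. Of the complex IV subunits, mt-Co1, the catalytic core, differed by 0.89 ± 0.45, mt-Co2, which accepts electrons from cytochrome c, by 0.91 ± 0.41 and mt-Co3 by 0.87 ± 0.41, with adjusted p-values of 0.253, 0.201 and 0.211. The apoprotein of complex III, mt-Cytb, differed by 0.82 ± 0.38. The lowest values were those of mt-Nd3, at 0.52 ± 0.41 (0.56 with its copy added), and mt-Nd5, at 0.66 ± 0.41.

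In edgeR's test these calls depended most on replicate 4 of the control cells. That library had the highest mt mRNA of its group, so leaving it out was bound to raise the difference. Without it, 14 mt genes passed the threshold on control diet: 12 of the 13 mRNAs and both rRNAs, all higher in macula densa cells, with a median of 1.27 over the mRNAs. The share of all genes passing also rose, to 17.7%. In the counts as deposited, mt-Nd4l then differed by 1.54 ± 0.30 (adjusted p = 0.00537 in edgeR's test) and mt-Rnr2 by 1.44 ± 0.33 (adjusted p = 0.0117). The exception was mt-Nd6, at 1.05 ± 0.37 (adjusted p = 0.0722). With replicate 4 kept, limma voom with sample weights on all 12 libraries called 12 mt genes, all higher in macula densa cells, and 13.5% of all genes.

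Under treatment the mRNAs again mostly had positive values. A positive value was found for 12 of 13 mRNAs, with a median of 0.46, and 0 of 35 mt genes passed the threshold in edgeR's test, against 7.27% of all genes (3.15% higher, 4.13% lower). An unadjusted p under 0.05 was found for 1 mt gene and for 25.3% of all genes. That gene was mt-Nd6, the one complex I subunit encoded on the minus strand. It stood at 128 and 287 CPM in macula densa cells and at 77.5, 57.3, 135 and 70.2 CPM in control cells, overlapping at 1 library of each group. The difference was 1.28 ± 0.43 (adjusted p = 0.0879), with 0.0305 and 0.0428 as the adjusted p without replicate 4 of the control cells on control diet and without replicate 3 under treatment, and 0.622 without replicate 2 of the macula densa cells. For 5 mRNAs (mt-Co2, mt-Co3, mt-Cytb, mt-Nd2 and mt-Nd4) the macula densa libraries lay above all 4 control cell libraries, as in 15.3% of all genes, while 34.8% did not overlap in either direction. Among these, mt-Nd2, a membrane subunit of complex I, stood at 347 and 429 CPM in macula densa against 190, 265, 273 and 267 CPM in control cells, a difference of 0.64 ± 0.38 (adjusted p = 0.314). mt-Nd3 was the mRNA with a negative value, -0.12 ± 0.44, and it became 0.79 with the counts on Gm28438 added.

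The average over both diets uses the same libraries as the comparisons within each diet, and each diet comparison shares its libraries with them. In it, all 13 mRNAs had positive values, with a median of 0.66 against -0.06 for all genes. mt-Nd6 alone passed the threshold, with 0.98 ± 0.30 (adjusted p = 0.0376 in edgeR's test); 21.3% of all genes were called. An unadjusted p under 0.05 was found for 9 mt genes and for 34.4% of all genes. mt-Co2, at 0.82 ± 0.29 (adjusted p = 0.0668), and mt-Nd2, at 0.74 ± 0.27 (adjusted p = 0.0699), came next, and the rRNAs stood at 0.69 ± 0.29 and 0.71 ± 0.31. No mt gene had its macula densa libraries outside the range of the control cell libraries of the same diet, in the same direction in both diets. Of all genes, 13.6% had (6.02% higher, 7.6% lower). The call of mt-Nd6 was lost in 9 of the 12 fits that left out 1 library (all but those without treated macula densa replicate 1, treated control cell replicate 3 or control cell replicate 4 on control diet), with a value of 0.62 and an adjusted p of 0.257 without replicate 2 of the macula densa cells under treatment. Leaving out replicate 4 of the control cells on control diet instead gave 13 called mt genes, 11 mRNAs and both rRNAs, all higher in macula densa cells, where 28.2% of all genes were called.

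**Figure D3:**
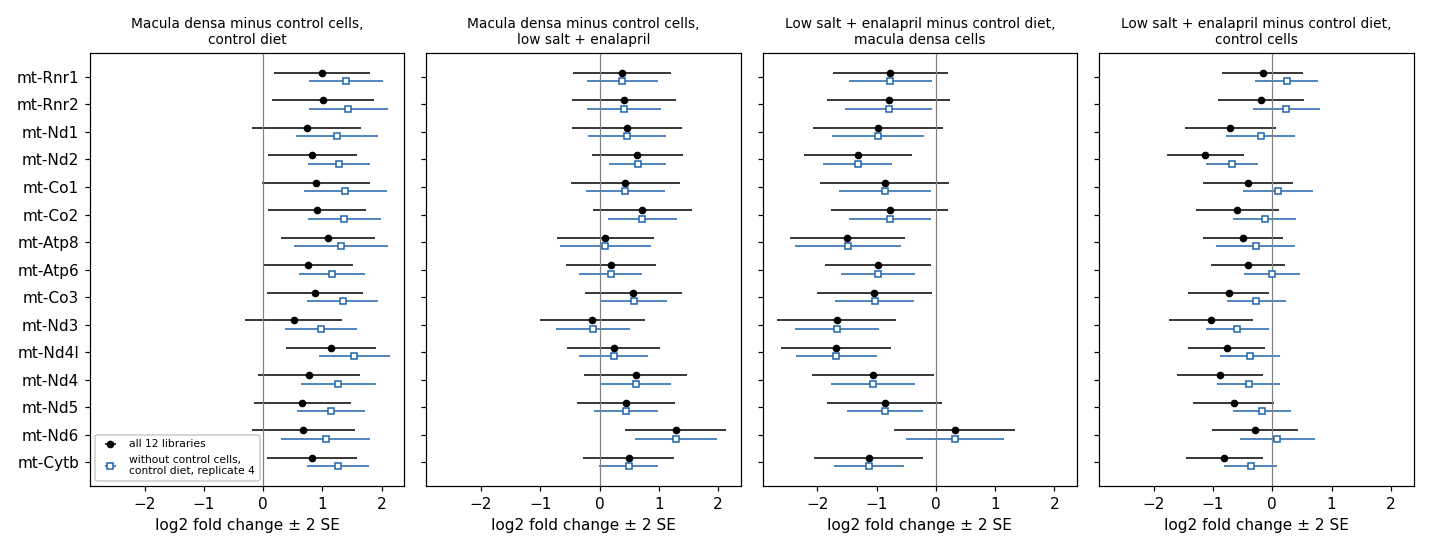
Fitted log2 fold change ± 2 SE of the 2 mt rRNAs and 13 mt mRNAs in 4 comparisons, from all 12 libraries (filled circles) and without replicate 4 of the control cells on control diet (open squares). Without that library the mRNA median is 1.27 in place of 0.82 for macula densa over control cells on control diet, and -0.27 in place of -0.71 for treatment in control cells.

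Treatment went with lower levels of nearly every mt gene in the 2 macula densa libraries of that group. The fitted value was negative for 12 of 13 mRNAs, with a median of -1.04, for both rRNAs, at -0.77 ± 0.49 and -0.80 ± 0.52, and for all 20 tRNAs tested, with a median of -1.82; the median of all genes was -0.02. For 34 of the 35 mt genes both libraries under treatment lay below both on control diet, where 21.8% of all genes did (40.6% did not overlap in either direction, 18.8% upward). No gene of the 14180 passed the adjusted threshold in edgeR's test (0%). An unadjusted p under 0.05 was found for 16 of the 35 mt genes and for 11.2% of all genes. In this fit the macula densa groups share the estimate of spread with the control cells. Fitted on the 4 macula densa libraries alone, edgeR called 19 mt genes, all lower under treatment, with 0.927% of all genes called. DESeq2 on all 12 libraries called 1 mt gene, mt-Th, with 0.656% of all genes called.

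The complex I genes ranged widely, and the most negative values among them depend on the copies: with these added, mt-Atp8 at -1.49 was the lowest of the 13 mRNAs. mt-Nd4l stood at 126 and 215 CPM on control diet and at 60.7 and 45.6 CPM under treatment, -1.68 ± 0.46 (adjusted p = 0.272 in edgeR's test) and -1.25 with its copy added. mt-Nd3 stood at 44.5 and 34.5 CPM against 9.96 and 14.8 CPM, -1.67 ± 0.50 (adjusted p = 0.297), and at -0.86 with its copy added. mt-Nd2 stood at 821 and 1113 CPM against 347 and 429 CPM, -1.32 ± 0.46 (adjusted p = 0.335). The groups did not overlap for these 3 genes, and no nuclear copy of mt-Nd2 was found by the search. mt-Nd1, mt-Nd4 and mt-Nd5 had values of -0.98, -1.06 and -0.86.

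mt-Nd6 went the other way, from 139 and 194 CPM on control diet to 128 and 287 CPM under treatment. Its value was 0.32 ± 0.51 (adjusted p = 0.853), and the groups overlapped. Replicate 2 of the macula densa cells under treatment set the sign: without it the value was -0.44.

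Outside complex I, mt-Cytb stood at 1800 and 2302 CPM against 893 and 976 CPM, -1.13 ± 0.46 (adjusted p = 0.395). mt-Co1 stood at 4471 and 5020 CPM against 2482 and 2742 CPM, -0.86 ± 0.54 (adjusted p = 0.581), and mt-Co2 and mt-Co3 at -0.78 and -1.04. mt-Atp6, the proton channel subunit of the ATP synthase, had -0.98 ± 0.45 and mt-Atp8 -1.49 ± 0.49. None of these genes overlapped between the pairs of libraries, while the adjusted p-values of all mt mRNAs lay at 0.272 or above.

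In control cells the same diet contrast gave negative values for all 13 mRNAs, with a median of -0.71, and for all 20 tRNAs. None was called in edgeR's test, where 0.00705% of all genes were. An unadjusted p under 0.05 was found for 5 mt genes and for 6.45% of all genes. mt-Nd2 had the largest value of the mRNAs: 345, 346, 503 and 980 CPM on control diet and 190, 265, 273 and 267 CPM under treatment, -1.13 ± 0.32 (adjusted p = 0.498 in edgeR's test). It was the one mt gene in which the 4 libraries under treatment lay below the 4 on control diet, as in 2.09% of all genes (2.1% upward, 4.2% in either direction). The rRNAs stood at -0.16 ± 0.34 and -0.19 ± 0.36. Replicate 4 on control diet carried much of this: without it the median of the mRNAs was -0.27, the rRNAs stood at 0.25 and 0.24, mt-Co1 at 0.091 and mt-Nd6 at 0.088, while mt-Nd2 stayed the most negative at -0.68 ± 0.21 (adjusted p = 0.458).

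The difference between the 2 diet effects, macula densa minus control cells, was tested as an interaction. None of the 35 mt genes passed (0% of all genes). An unadjusted p under 0.05 was found for 0 of 35 mt genes and for 7.03% of all genes. The median was -0.30 for the mRNAs and -1.04 for the tRNAs. Leaving out 1 library at a time moved these values. The mRNA median was lowest, at -0.77, when replicate 4 of the control-diet control cells was left out and highest, at -0.14, when treated control cell replicate 3 was. Unadjusted p-values under 0.05 then numbered 0 to 9 among the mt genes, with 9 when replicate 2 of the control-diet control cells was left out and 6 when their replicate 4 was. No mt gene was called in any of the 12 fits. mt-Th had the smallest p of the mt genes, at -1.70 ± 0.80 (adjusted p = 0.720 in edgeR's test). The interval of mt-Nd2, from -1.29 to 0.91, and that of mt-Nd6, from -0.64 to 1.86, both held 0. With the description numbers fitted as a block, 18 mt genes had an unadjusted p under 0.05 in edgeR's test. On the same 8 libraries without the block 8 had. The mRNA medians were -0.67 and -0.66, and no gene was called in either fit (0%). The share of all genes with an unadjusted p under 0.05 is not given for these fits.

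The balance among mt RNAs, which needs no scaling between libraries, is given as a description with no test. mt rRNA counts per mt mRNA count stood at 5.94 and 6.08 in macula densa cells and at 5.06 to 5.53 in the 4 control cell libraries on control diet. Under treatment they stood at 7.33 and 6.30 in macula densa cells and at 6.60 to 7.95 in control cells. All 6 libraries under treatment were therefore above all 6 on control diet, replicate 4 of the control cells included, which had the lowest ratio. With the chromosome 1 copies counted as mRNA, the ratio was 4.12 to 4.48 against 5.28 to 6.10 in control cells, still apart. In macula densa cells it was 4.79 and 5.02 against 5.93 and 5.01, which overlap.

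mt-Nd2 was the single mRNA of 13 whose share of mt mRNA separated the diets in all 12 libraries. It took 5.56% and 6.23% in macula densa cells and 5.78% to 6.03% in control cells on control diet. Under treatment it took 4.46% and 4.77% in macula densa cells and 3.18% to 4.78% in control cells. The separation held with the copies added to the other genes, at 4.48% to 5.14% against 2.52% to 3.85%. In control cells no other mRNA's share separated the diets, and in macula densa cells, with 2 libraries a group, 3 shares were higher and 6 lower without overlap. On CPM, 40.6% of all genes tested did not overlap between the diets in macula densa cells (18.8% higher, 21.8% lower) and 4.2% in control cells. The shares of a library add up to a whole, so they are not independent. No test was run on these shares, which were looked at as a set of 13.

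The share of mt-Nd6 was highest in 1 treated macula densa library. In macula densa cells it was 0.942% and 1.08% on control diet and 1.64% and 3.19% under treatment. In control cells it ranged from 0.946% to 1.38% on control diet and from 1.03% to 1.75% under treatment, and the ranges overlapped. In macula densa cells they did not. The 3.19% of macula densa replicate 2 is the highest of the 12 values, and Gm29216, the copy of part of mt-Co1, was also highest there, at 4.88% of mt-Co1.

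**Figure D4:**
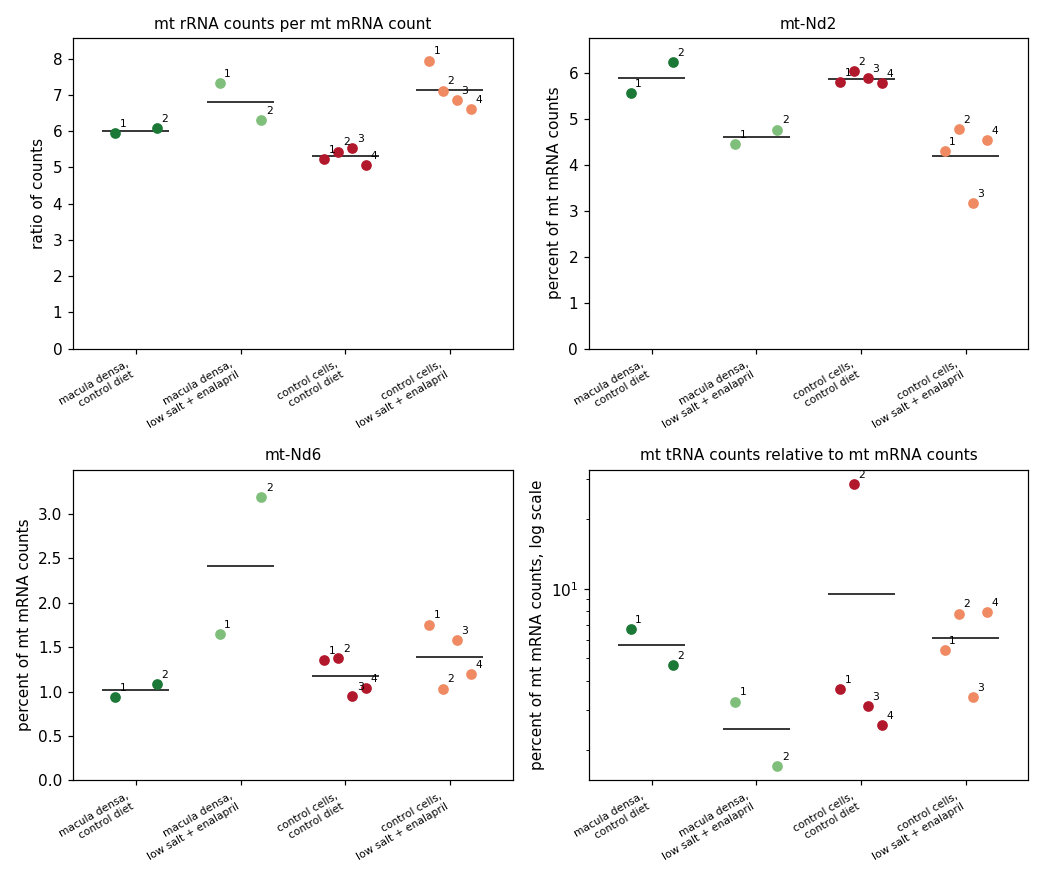
Ratios within each library: mt rRNA counts per mt mRNA count, mt-Nd2 and mt-Nd6 as percent of mt mRNA counts, and mt tRNA counts as percent of mt mRNA counts (log axis); points are libraries numbered by replicate and lines are group means. In the counts as deposited, the rRNA ratio is higher and the mt-Nd2 share lower in all 6 libraries under treatment. With the chromosome 1 copies added, the rRNA ratio overlaps between the diets in macula densa cells. mt-Nd6 and the tRNAs stand apart in single libraries.

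The tRNAs were a small part of the mt counts, 0.0161% to 0.172% of all counts in a library, and they were very uneven. mt-Tg, the glycine tRNA, held 45.1% of all tRNA counts, mt-Tv, the valine tRNA, 24.99%, mt-Th, the histidine tRNA, 7.09% and mt-Tk, the lysine tRNA, 5.22%. The first pair are the genes shown above within their neighbours, and these 4 held 82.4% together. These shares pool all libraries, and replicate 2 of the control cells on control diet gave 38.5% of the mt-Tg counts; without it mt-Tg held 39.2% and mt-Tv 28.1%. Within a library mt-Tg held 25.8% to 60.5% and mt-Tv 17.2% to 35.8%. mt-Tg was the highest tRNA in 8 libraries and mt-Tv in 4, among them both treated macula densa libraries. Per kb, mt-Tg averaged 3345 CPM and mt-Tv 1926, against a median of 73.0 over the 22 tRNAs. mt-Tc and mt-Ts2, at the low end, had 3.997 and 2.40 CPM per kb. A library preparation for total RNA of this kind is not made for tRNAs, which are short, folded and modified.

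Replicate 2 of the control cells on control diet stood apart in tRNA. Its tRNA counts came to 28.5% of its mRNA counts, against 2.57% to 3.69% in the other 3 libraries of its group and 1.71% to 7.90% in the remaining 8. mt-Tg stood at 970 CPM in that library and at 90.2, 81.6 and 163 CPM in the other 3. The excess was not limited to mt-Tg: without it the tRNA counts still came to 11.6% of the mRNA counts, against at most 5.68% in any other library, and mt-Tv stood at 286 CPM against 51.9, 89.1 and 119 CPM. Its mRNA sum, 5731 CPM, was like that of replicate 1.

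On control diet all 20 tested tRNAs had positive values in macula densa cells, with a median of 0.75 and none called in edgeR's test. The groups did not overlap for mt-Tl1 and mt-Ts1, 2 of 20, with the macula densa higher, as in 15.2% of all genes. Without that replicate 2, mt-Tg at 1.74 ± 0.39 (adjusted p = 0.0358) and mt-Ti, the isoleucine tRNA, at 1.92 ± 0.43 (adjusted p = 0.0349) passed, with 3.27% of all genes called. Under treatment 16 of 20 were negative, with a median of -0.39, and for 2 tRNAs (mt-Tg and mt-Th) the macula densa libraries lay below all control cell libraries, as in 19.5% of all genes. mt-Tg was the most negative, with 74.9 and 39.5 CPM against 145, 118, 133 and 187 CPM.

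Between the diets in macula densa cells, mt-Th stood at 69.2 and 71.1 CPM on control diet and at 15.3 and 9.35 CPM under treatment, -2.51 ± 0.69 (adjusted p = 0.266 in edgeR's test). mt-Tg stood at 453 and 274 CPM against 74.9 and 39.5 CPM, -2.67 ± 1.004, and mt-Tv at 237 and 274 CPM against 79.7 and 53.5 CPM, -1.94 ± 0.73. mt-Tk, mt-Tm, mt-Tw and mt-Tp had values of -1.78, -1.996, -1.68 and -1.85. As a share of the mRNA counts, tRNA was 6.72% and 4.69% in macula densa cells on control diet and 3.25% and 1.71% under treatment. In control cells the same share was 2.57% to 28.5% and 3.41% to 7.90%, which overlap.

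The remaining tRNAs with a mean of at least 10 counts per library (mt-Ta, mt-Td, mt-Te, mt-Tf, mt-Tl1, mt-Tn, mt-Tq, mt-Tr, mt-Ts1 and mt-Tt, with mt-Ti above) had values between -2.30 for mt-Tt and -1.04 for mt-Tl1 in that comparison, the last a leucine tRNA. Those under that mean, mt-Ty and mt-Tl2, reached at most 2.16 and 1.41 CPM in a library.

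The sorted cells were checked against markers. The 6 macula densa markers summed to 2151 to 3087 CPM in the 4 macula densa libraries and to 44.6 to 434 CPM in the 8 control cell libraries. Thick ascending limb markers, 8 genes, summed to 3394 and 4312 CPM in macula densa cells on control diet, to 2464 and 2597 CPM under treatment, and to 210 to 1644 CPM in control cells; the highest of the control cell libraries was again replicate 4 on control diet. Markers of podocytes and of endothelium, cell types that are not tubule, were abundant in most control cell libraries, although the label gives distal tubule and collecting duct. The 8 podocyte markers summed to 1462, 1164, 735 and 46.2 CPM in control cells on control diet and to 144, 1167, 225 and 986 CPM under treatment. The 8 endothelium markers summed to 1560, 1273, 858 and 46.4 CPM and to 345, 898, 255 and 1259 CPM in the same libraries.

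Cell type markers and mt mRNA are set side by side here. Replicate 4 on control diet, with the highest mt mRNA of the control cells, had the lowest podocyte and endothelium sums of the 8 and the highest principal cell (900 CPM), intercalated cell (464 CPM) and distal convoluted and connecting tubule (641 CPM) sums. Those 3 lists summed to 104 to 463, 29.9 to 191 and 69.1 to 176 CPM in the other 7. Replicates 1 and 3 under treatment had near-equal podocyte and endothelium sums, 488 and 480 CPM together, and mt mRNA of 4417 and 8604 CPM. In macula densa cells the proximal tubule markers, a cell type rich in mitochondria, summed to 139 and 220 CPM on control diet and to 44.3 and 94.7 CPM under treatment; all 12 were detected in the 4 libraries. Averaged over diets, 11 of these 12 had positive values in macula densa over control cells and 3 were called higher and 1 lower in edgeR's test. Of all genes, 7.48% were called higher and 13.9% lower in that comparison. At 0 counts in both treated macula densa libraries were Pvalb of the distal list, Plvap of the endothelium, Alas2 and Hbb-bt of red cells, Itga8 of the mesangium, C1qc, Lyz2 and Tyrobp of leukocytes and Fxyd4 of principal cells. At 0 in both macula densa libraries on control diet were Dcn of fibroblasts and C1qb, Cd3e and Tyrobp of leukocytes. Library totals were 8637691 and 11085556 counts in this pair and 4730295 and 5824932 in the treated pair, so a 0 is more easily reached under treatment. Pvalb was at 0 in all 4 treated control cell libraries and Lum, a fibroblast gene, in all 4 on control diet. Leukocyte markers summed to 2.12 to 7.39 CPM in macula densa and to 2.31 to 123 CPM in control cells, red cell markers to 1.92 to 7.41 and 0 to 94.7 CPM, fibroblast and mesangium markers to 1.31 to 24.1 and 8.16 to 119 CPM, and smooth muscle and renin markers to 19.2 to 37.6 and 102 to 542 CPM. The part of these cell types in the mt results was not tested.

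**Figure D5:**
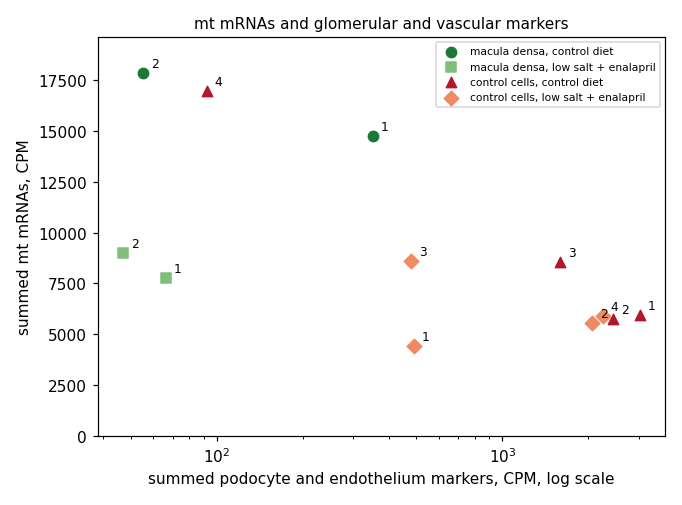
Summed mt mRNA level of each library in CPM against the summed podocyte and endothelium markers in CPM on a log axis; symbols and colours mark the 4 groups and numbers the replicates. Control cell replicate 4 on control diet held 92.6 CPM of the markers and 16972 CPM of mt mRNA. The macula densa libraries of that diet held 352 and 55.2 CPM of the markers, with 14768 and 17861 CPM of mt mRNA. Those under treatment held 66.7 and 47.1 CPM of the markers, with 7779 and 8992 CPM of mt mRNA.

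Of the 15 tested nuclear genes for mtDNA transcription and replication, 1 was called higher and 0 lower in macula densa cells averaged over both diets: Tfb1m, an rRNA methyltransferase, at 1.42 ± 0.33 (adjusted p = 0.0111), on a mean of 1.59 CPM. Tfam, which packages mtDNA and starts its transcription, stood at 9.08 ± 2.25 CPM (SD, n = 2) and 6.18 ± 0.07 (n = 2) in macula densa cells and at 6.23 ± 0.65 (n = 4) and 4.53 ± 0.54 (n = 4) in control cells on control diet and under treatment. The difference was 0.50 ± 0.17 (adjusted p = 0.0548 in edgeR's test). Top1mt, the mitochondrial topoisomerase, had -1.93 ± 0.67 (adjusted p = 0.0588) and Polg, the mtDNA polymerase, -0.47 ± 0.26 (adjusted p = 0.223). Top1mt ranged from 1.65 to 34.3 CPM in control cells on control diet and from 4.30 to 24.97 CPM under treatment. In macula densa cells it stood at 4.48 and 4.92 CPM and at 3.26 and 4.43 CPM, so the cell types overlapped in both diets. Of 29 tested genes for mt RNA processing, stability and modification none was called, with 19 positive and a median of 0.31. Pnpt1, a subunit of the RNA degradosome, had 0.66 ± 0.23 (adjusted p = 0.0646), Lrpprc, which stabilises mt mRNAs, 0.68 ± 0.28 (adjusted p = 0.110) and Grsf1, an RNA granule protein, 0.52 ± 0.25 (adjusted p = 0.168).

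Among the 12 regulators of mitochondrial biogenesis, 3 were called higher and 2 lower. Esrrg, an orphan nuclear receptor of oxidative genes, stood at 38.7 and 40.6 CPM in macula densa cells on control diet and at 24.7 and 29.7 CPM under treatment, with control cells at 4.92 to 29.8 and 6.37 to 9.87 CPM. Its value was 1.70 ± 0.36 (adjusted p = 0.00659). Ppargc1b, a coactivator, had 1.05 ± 0.31 (adjusted p = 0.0324) and Gabpa, a transcription factor, 0.45 ± 0.13 (adjusted p = 0.0256). Nrf1, a transcription factor of nuclear respiratory genes, and Pprc1 were lower, at -0.74 ± 0.23 (adjusted p = 0.0424) and -0.91 ± 0.30 (adjusted p = 0.0475).

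Of 20 genes for import and membrane structure, 1 was called, Hspd1, the matrix chaperonin, at 0.73 ± 0.21 (adjusted p = 0.0276); the median was 0.01. Of 11 tested genes of mitochondrial and integrated stress, 0 were higher and 4 lower: Atf4, a transcription factor of the stress response, at -0.90 ± 0.19 (adjusted p = 0.00612), Gdf15, a secreted stress hormone, at -3.15 ± 0.58 (adjusted p = 0.00321), and the serine synthesis enzymes Phgdh and Psat1 at -1.79 ± 0.48 and -2.35 ± 0.78 (adjusted p = 0.0208 and 0.0498). All of these are on edgeR's averaged comparison, in which 7.48% of all genes were called higher and 13.9% lower.

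Nuclear genes for subunits of the respiratory complexes, 78 of them tested, stand beside the mt mRNAs for comparison. In macula densa over control cells their median was 0.37 on control diet, with 72 positive, and 0.18 under treatment, with 55 positive. The mt mRNA medians were 0.82 and 0.46. Averaged over diets 1 of the 78 was called, Ndufa9 of complex I, at 0.76 ± 0.24 (adjusted p = 0.0438 in edgeR's test). Of all genes, 7.48% were called higher and 13.9% lower there. For the diet contrast the median of the nuclear subunit genes was -0.52 in macula densa cells, with 12 positive, and -0.30 in control cells, with 8 positive. The mt mRNA medians stood at -1.04 and -0.71. None of the nuclear subunit genes was called, where 0% and 0.00705% of all genes were.

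Across the 12 libraries, the nuclear genes whose log2 CPM ranked most like the mean log2 CPM of the 13 mt mRNAs, out of 1856 candidates, were Acadsb, an enzyme of branched-chain acyl-CoA breakdown in mitochondria (Spearman rho 0.937), 4833439L19Rik (0.916), Sod2, the matrix superoxide dismutase (0.909), Pclo (0.902) and Atp5a1, the alpha subunit of the ATP synthase (0.881). These values are a description over 12 libraries of 4 groups, which share the group differences and the same scaling.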

How the data were processed

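Expected counts per gene for 12 libraries were deposited by the authors in 1 table, in which 15% of values are not whole; per the labels' protocols the RNA was from sorted cells and the libraries were prepared together with a stranded total RNA kit. STAR 2.61, Partek and mm10 are named in the submitters' processing notes, and their settings are not given in the sources used here. Libraries were grouped by their titles. Counts were rounded, filtered with filterByExpr (minimum count 10, total 15), scaled by TMM and fitted with edgeR 4.0.16 in R 4.3.3, with 1 coefficient per group over all 12 libraries and adjustment over 14180 genes. CPM of single genes and sums of markers used rounded counts, while CPM per kb, sums of the mt classes and shares used unrounded counts. Copies were found with blastn 2.17.0. On simulated data, 4-fold changes were recovered for 68% of changed genes in the averaged cell comparison (13529 genes). In the diet comparisons they were recovered for 21.5% in macula densa cells (13566 genes) and 60.5% in control cells (13531 genes). In the same order, 2-fold changes were recovered for 1.5%, 0% and 0% (13694, 13447 and 13518 genes). Each run changed 200 genes drawn at random from all genes that passed the filter, with no other difference between groups. The percents describe such genes as a set and do not give the power for the mt genes. Alternatives were DESeq2 1.42.0, limma 3.58.1 voom with sample weights, other scalings and filters, replicate blocks, and each library left out. Every mt gene may be named; of each pathway list, the 3 members with the smallest p in the averaged comparison and a mean of at least 5 CPM; of each marker list, the members at 0 in every library of a group; others were named after their values were seen. The genes and lists were chosen with earlier results of these data known. Intervals are ± 2 SE.
Treatment means low salt food with enalapril.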

Additional observations from a re-analysis of the deposited data

Results flagged for a closer look

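In 4 of the 82 sets of 4 control cell libraries that were checked, 1 library lay far from the other 3; chance gives about 4.1. In control cells under treatment, replicate 1 was lowest for mt-Nd2, at 7.57 log2 CPM against 8.05 to 8.09. In control cells on control diet, replicate 4 was highest for mt-Nd6, at 7.46 log2 CPM against 6.30 to 6.34. Replicate 2 of that group was highest for mt tRNA as percent of mt mRNA, at 4.83 on the log2 scale against 1.36 to 1.89. Replicate 1 of that group was lowest for mt-Rnr2 per mt-Rnr1, at 0.80 on the log2 scale against 1.03 to 1.07.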

How the results depend on the processing

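The number of mt genes called is given with the percent of all genes called in the same fit. In macula densa against control cells on control diet, 0 (6.61%) became 1 (6.14%) with library totals alone, 12 (13.5%) with voom, 14 (16.2%) with the replicate block of description numbers, 13 (17.0%) on the same 8 libraries without the block (an alternative added after seeing the data), and 0 to 14 (0.755% to 17.7%) with 1 library left out. Under treatment, 0 (7.27%) became 1, mt-Nd6 higher, with library totals alone (7.95%), DESeq2 (13.6%) and the 8 libraries unblocked (16.7%); 1, mt-Tg lower (-1.35, adjusted p = 0.0382 in edgeR's test), on the groups compared alone (10.2%); 2 with the description block (16%); and 0 to 1 (1.22% to 13.5%) with 1 library left out. Averaged over diets, 1 (21.3%) became 10 (23.1%) with library totals alone, 0 without a filter (12.4%) and at a threshold of 0.01 (9.17%), 3 (26.2%) with DESeq2, 13 (18.7%) with voom, 12 (13.5%) with the replicate block of title numbers, 13 with the description block (26.5%) and on its 8 libraries unblocked (28.3%), and 0 to 13 (10.4% to 28.2%) with 1 library left out. In macula densa cells between diets, 0 (0%) became 1 (0.656%) with DESeq2 and 19 (0.927%) on the groups compared alone. The title block moved the median of the mt mRNAs to 1.33 on control diet and 0.95 under treatment. The median mt mRNA share of 0.737% of counts became 3.996 per 100 nuclear protein-coding counts and 2.487% outside Gm42418 and Mir6236. The median mt-Nd6 share of 1.274% became 1.786% without the overlapping pairs. Reversed were mt-Nd3 under treatment, to 0.10 (library totals), 0.13 (title block), 0.79 (copies added, an alternative added after seeing the data) and up to 0.087 with 1 library left out (from -0.47); mt-Nd6 between diets in macula densa cells, to -0.44, and in the difference of diet effects, to -0.16, without macula densa replicate 2 under treatment (highest 0.72 and 0.995); and, in control cells between diets, mt-Rnr2, to 0.066 with voom and 0.24 without control diet replicate 4, with mt-Nd6 at 0.088 and mt-Co1 at 0.091 without it (lowest -0.38, -0.61 and -0.73 without treated replicate 3). The cause was not tested. Description numbers shared by macula densa and control cell libraries gave correlations of 0.227, -0.018, 0.075 and -0.037 (title numbers gave -0.377 to 0.278). Of 4 macula densa libraries, 1 correlated best with the control cell library of its own number. These are correlations of deviations from group means, which mirror each other in a group of 2 libraries, so they cannot exclude pairing. The labels do not say what the numbers stand for, and the block was used as an alternative only. The diet comparisons could not be fitted under the description block. The depth limits the tRNAs most, with 3 counts worth 0.231 to 0.735 CPM.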
